A study of Mus musculus with 2 samples.

Results

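Spinal muscular atrophy follows from a shortage of the survival motor neuron protein, SMN, which assembles the small nuclear ribonucleoproteins that splice pre-mRNA. The disease strikes lower motor neurons first, and its severity is tuned by genes that act in other processes. Some are modifiers, whose level changes the outcome of SMN loss, and others are effectors, whose own expression or splicing changes when SMN is lacking. The 8 genes described here were taken from a list of such modifiers and effectors: Pls3, Coro1c, Ncald, Zpr1, Uchl1, Tmem41b, Agrn and Chodl. They are 8 of 45578 genes in the table, chosen by their reported part in the disease, and each symbol matched 1 Ensembl gene. Earlier results of these data were known when they were chosen.

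Ribosome profiling was done on control brains of mice at postnatal day 5, with 1 group and 2 biological replicates. The control animals were of the Taiwanese line on the congenic FVB background, with genotype Smn+/-; SMN2tg/0, so both replicates lacked 1 mouse Smn allele and carried the human SMN2 transgene. Polysomes from a sucrose gradient were digested with RNase I, and the ribosome-protected fragments, or footprints, were sequenced. No group with SMN deficiency was analysed here, so the values give how strongly these genes were occupied by ribosomes in a control brain, and not how they respond to SMN loss.

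The libraries held 1866831 footprints for replicate 1 and 5261878 for replicate 2, so replicate 2 was 2.82 times as deep. Brain markers were present in both: all 7 neuronal and all 6 astrocyte markers passed a mean count of 10, and neuronal markers summed to 5486 CPM (counts per 1000000 footprints of the library) and 4471 CPM. Markers of motor neurons, the cells most affected in the disease, summed to 30.5 and 35.7 CPM. Of these, Mnx1 had no footprint in either library, and Isl2 and Lhx3 had 1 between the libraries each. The other 4 passed the mean count of 10 and gave nearly all of the sum. Isl1, the highest of them per coding length, had 15 and 59 footprints. Whether these footprints came from motor neurons was not tested. Of 8 skeletal muscle markers only 3 passed the mean count of 10, with Acta1, whose product is nearly identical to other actins, at a mean of 62.6 CPM and the rest at means of 3.39 CPM or less. In whole brain, fewer cells of a type and fewer footprints per cell cannot be told apart. Smn1 had 71 and 253 footprints, which per coding length gave 50.4 and 67.5, within the range of Tmem41b, and the transgene's part in this count was not tested.

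All 8 genes had footprints in both libraries, and together they took 0.199% of replicate 1 and 0.177% of replicate 2. Levels were compared between genes as footprints per kilobase of the longest annotated coding sequence, scaled to a sum of 1000000 over coding genes. On this scale the 8 genes covered a 54.8-fold range of means, from Uchl1 at the top to Chodl at the bottom, and the median of the 13349 tested coding genes was 27.8. For 3 pairs of neighbours in this order (Agrn and Tmem41b, Tmem41b and Pls3, Zpr1 and Chodl) the ranges over the libraries overlapped, and for the others they did not. With 2 libraries a value, an exact permutation test between a pair of genes, taken as unpaired, cannot go below p = 0.333. Both genes are measured in the same libraries, and a test paired by library is coarser still. No test between genes was therefore made.

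**Figure D1:**
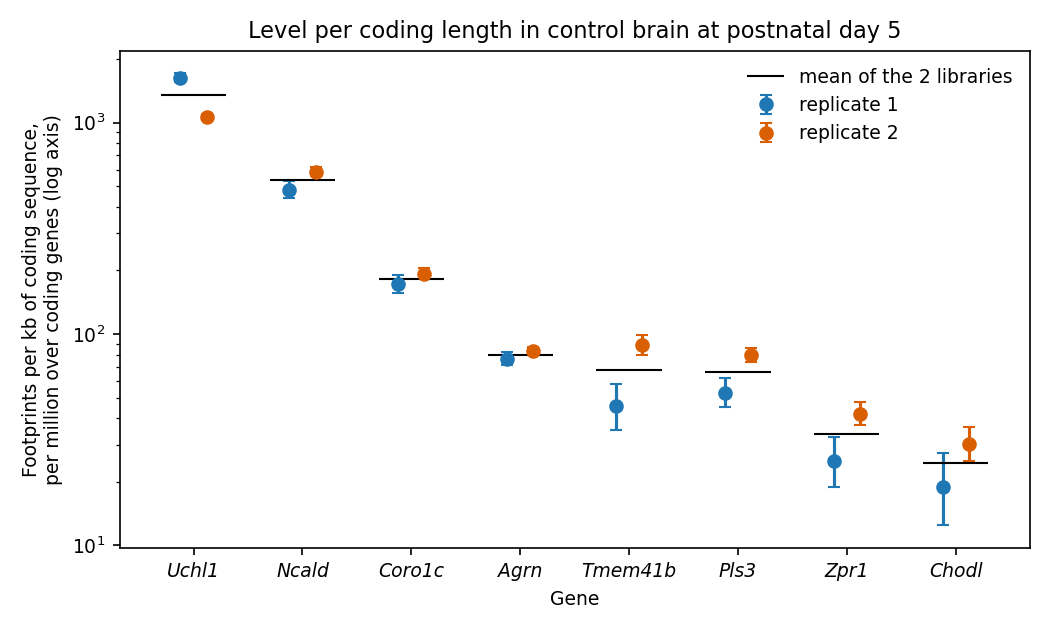
Footprints per kb of longest coding sequence, per 1000000 over coding genes (log axis), for the 8 genes in replicate 1 (blue) and replicate 2 (orange), with the mean as a black line and Clopper-Pearson 95% counting intervals as bars. Uchl1 lies above 1000 in both libraries, and Ncald and Coro1c follow without overlap. The ranges of Agrn and Pls3 overlap and lie within that of Tmem41b, from 45.7 to 89.0.

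Uchl1 (ENSMUSG00000029223) encodes a ubiquitin carboxy-terminal hydrolase that is one of the abundant proteins of neurons. Summed over its transcripts it had 1783 footprints in replicate 1 and 3087 in replicate 2, and its coding sequence is 672 nucleotides long. Per coding length it stood at 1634 (Clopper-Pearson 95% interval 1559 to 1712) and 1062 (1025 to 1101) in the first and second library, averaging 1348 ± 404 (SD, n = 2), at percentile 99.8 of tested coding genes. It was the highest of the 8 in each library, and it alone gave 48.1% and 33.2% of the footprints on the 8 genes. In footprints per codon, which is not scaled to depth, it had 7.96 and 13.8.

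Ncald (ENSMUSG00000051359) encodes neurocalcin delta, a neuronal calcium sensor that restrains endocytosis and whose lowering is protective in models of the disease. It had 455 and 1478 footprints, and its coding sequence is 582 nucleotides long. Its level per coding length was 481 (438 to 528) and 587 (558 to 618), averaging 534 ± 74.8 (SD, n = 2), at percentile 98.2. The lower Uchl1 value exceeded the higher Ncald value, so these genes did not overlap.

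Pls3 and Coro1c act on filamentous actin. Coro1c (ENSMUSG00000004530) encodes a coronin that binds actin filaments and PLS3, and had 399 and 1190 footprints. Its level per coding length was 172 (156 to 190) and 193 (182 to 204), averaging 183 ± 14.6 (SD, n = 2), at percentile 90.4. It lay below Ncald and above Agrn in both libraries. Pls3 (ENSMUSG00000016382) encodes the actin-bundling protein plastin 3, whose high expression is protective, and had 165 and 661 footprints. Its level per coding length was 52.9 (45.2 to 61.6) and 79.6 (73.7 to 85.9), averaging 66.3 ± 18.9 (SD, n = 2), at percentile 73.3. Both Coro1c values were above both Pls3 values.

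Agrn (ENSMUSG00000041936) encodes agrin, the heparan sulfate proteoglycan by which motor axons organise the postsynaptic side of the neuromuscular junction. Its coding sequence was the longest of the 8, at 6105 nucleotides, and the gene had 757 and 2193 footprints. Per coding length its level was 76.4 (71.0 to 82.0) and 83.1 (79.6 to 86.6), averaging 79.7 ± 4.75 (SD, n = 2), at percentile 77.4. The spread of this level between libraries was the smallest of the 8 relative to its mean. The Agrn range overlapped those of Tmem41b and Pls3: Agrn was the highest of these 3 genes in replicate 1 and Tmem41b was the highest in replicate 2.

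Tmem41b (ENSMUSG00000047554), also called stasimon, encodes a membrane protein of the endoplasmic reticulum, and its mRNA contains a minor-class intron whose splicing depends on SMN. It had 65 and 337 footprints. Its level per coding length was 45.7 (35.3 to 58.2) and 89.0 (79.7 to 99.0), averaging 67.3 ± 30.6 (SD, n = 2), at percentile 73.7. In level per coding length its libraries differed the most of the 8 relative to the mean, and its range covered all of the Pls3 and Agrn values.

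Zpr1 (ENSMUSG00000032078) encodes a zinc finger protein that binds SMN and helps it to reach nuclear bodies. It had 56 and 251 footprints, or 25.0 (18.9 to 32.5) and 42.1 (37.0 to 47.6) per coding length, averaging 33.5 ± 12.1 (SD, n = 2), at percentile 55.4. Chodl (ENSMUSG00000022860) encodes chondrolectin, a C-type lectin of motor neurons whose transcripts are misspliced in mice short of SMN. It had 27 and 115 footprints, or 18.9 (12.5 to 27.5) and 30.3 (25.0 to 36.3) per coding length, averaging 24.6 ± 8.02 (SD, n = 2), at percentile 46.5. Both Zpr1 values lay below both Pls3 values. The Zpr1 and Chodl ranges overlapped, although Zpr1 was the higher within each library.

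The order depended on how coding length and transcripts were treated for some genes. Uchl1 stayed first, and Zpr1 and Chodl were the lowest of the genes that had a value, in each of the 3 other length definitions tried. With counts divided by transcript length instead, Coro1c, at 290, passed Ncald, at 257. With protein coding transcripts alone, Uchl1 was at 801 and Coro1c, at 81.0, lay below Pls3.

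The next question was whether the replicate brains gave the same values. A two-sided exact binomial test of each gene's counts against the ratio of library sizes, scaled by TMM (trimmed mean of M values), was run on every gene whose counts averaged 10 or more, 16427 in all. All 8 genes passed this filter. Of the 8, 3 had a Benjamini-Hochberg adjusted p under 0.05, while 17.4% of all tested genes did. Of these, 1 was lower in replicate 2 against a background of 11.5%, and 2 were higher against 5.95%. With an average of 50 counts or more required, which all 8 met, 4 of the 8 and 2959 of 11057 genes were called. This test compares libraries, not conditions, and covers counting error only. The median log2 ratio of replicate 2 over replicate 1 was 0.23 over the 8 genes and 0.01 over all tested genes. Against a scaling by library totals, TMM lowered each log2 ratio by 0.13, a shift that changed the sign of no called ratio given here. Levels per coding length are not scaled by TMM, so the genes rank differently by spread on the 2 scales. By the TMM log2 ratio Uchl1 differed the most of the 8, at -0.83, and Coro1c the least, at -0.04.

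Uchl1 was the gene that was lower in replicate 2. It had 955 CPM (911 to 1001) in replicate 1 but 587 CPM (566 to 608) in replicate 2. The log2 ratio was -0.83 (95% counting interval -0.91 to -0.74), and the exact binomial test gave an adjusted p of 1.72e-75. All 4 of its annotated transcripts were lower, from -0.89 to -0.64, but they share exons and are not independent measurements. Across all genes the log2 ratio fell with the level per coding length, and at the level of Uchl1 the trend stood at -0.52. With the trend removed, the Uchl1 ratio was -0.31 and the exact binomial test gave 4.75e-11 after adjustment, so a difference remained beyond counting error. Of the 7 neuronal markers, 4 were also called lower in replicate 2, against a background of 11.5%, and none was called higher. Their median log2 ratio was -0.20 against 0.01 over all tested genes. The 4 had mean levels of 491 to 1581 per coding length. At 534, the level of Ncald, the trend stood at -0.35, and the marker ratios are given without removing it. The markers' part in the Uchl1 difference was not tested.

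Tmem41b and Pls3 were the genes higher in replicate 2. Tmem41b stood at 34.8 CPM (26.9 to 44.4) in the first library and 64.05 CPM (57.4 to 71.3) in the second. The log2 ratio was 0.75 (0.37 to 1.16), and the exact binomial test gave an adjusted p of 0.000827. All 8 of its transcripts had a ratio above 0, but they share exons and are not independent measurements. Pls3 stood at 88.4 CPM (75.4 to 103) and 126 CPM (116 to 136), and its log2 ratio was 0.38 (0.13 to 0.64), for which the exact binomial test gave an adjusted p of 0.0161. All 5 Pls3 transcripts with footprints had a ratio above 0, with the same limit. Both lost the call when a single transcript, the highest, stood for the gene, which leaves fewer counts. The ratios were then 0.49 for Tmem41b and 0.30 for Pls3, and the exact binomial test gave adjusted p-values of 0.654 and 0.672. No member was called by the exact test of edgeR, whose dispersion was estimated across genes from these libraries, and 11 of the 16427 tested genes were. In that test 1 of the 8 had an unadjusted p under 0.05, as did 719 of the 16427.

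The other 5 genes did not pass the test. Zpr1 came nearest, at 29.997 CPM (22.66 to 38.95) and 47.7 CPM (41.98 to 53.98), with a log2 ratio of 0.54 (0.12 to 0.99), and its adjusted p in the exact binomial test was 0.0538. It passed at 0.0117 with library totals and at 0.0388 when the filter was raised to an average of 50 counts. Chodl had 14.5 CPM (9.53 to 21.04) and 21.9 CPM (18.04 to 26.2), and its wide interval of the log2 ratio, from -0.15 to 1.13 around 0.46, rests on its 27 and 115 footprints. Agrn, at 405.5 and 417 CPM, had a log2 ratio of -0.09 (-0.21 to 0.03). Coro1c, at 214 and 226 CPM, had a log2 ratio of -0.04 (-0.21 to 0.12). For both, the sign turned with library totals, to 0.04 and 0.08, and the Coro1c ratio was 0.13 with the trend removed. Ncald, at 244 and 281 CPM, had a log2 ratio of 0.08 (-0.07 to 0.23). At the high level of Ncald the trend stood at -0.35, and with the trend removed its ratio was 0.43 and it was called.

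**Figure D2:**
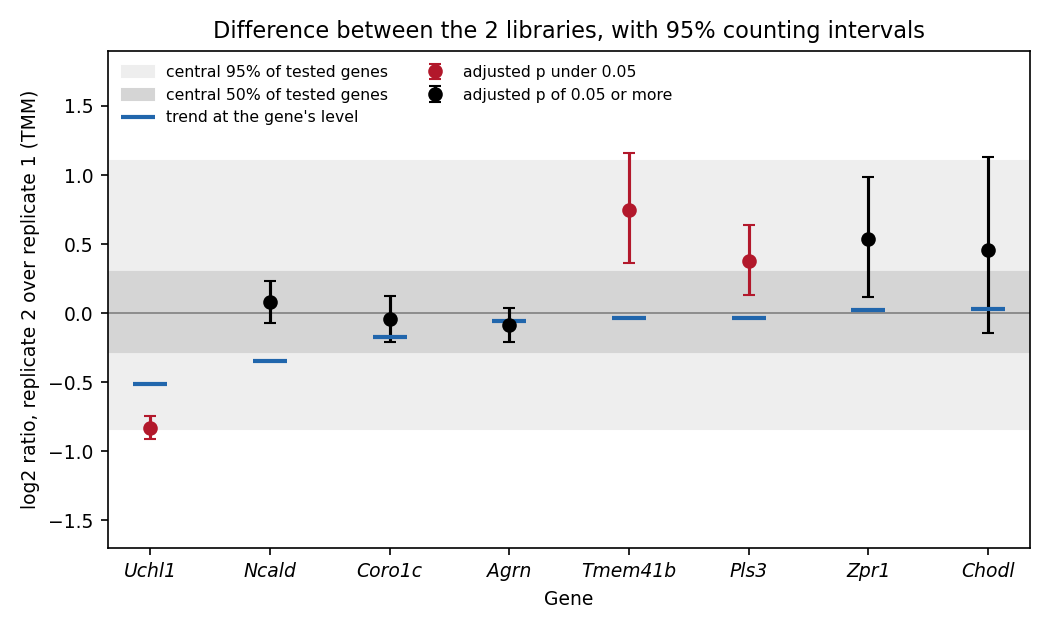
log2 ratio of replicate 2 over replicate 1 (TMM scaling) for the 8 genes, ordered by level, with 95% counting intervals; red points passed the exact binomial test at an adjusted p under 0.05. The shaded bands hold the central 50% and 95% of the 16427 tested genes, and the blue marks give the trend at each gene's level, from -0.52 for Uchl1 to 0.03 for Chodl.

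The footprints of the 8 genes were spread over 58 annotated transcripts, of which 57 had at least 1 footprint. These transcripts share exons, and a fragment in a shared exon appears to be credited to a single transcript: over 49 pairs of same-gene transcripts in the table with identical annotated lengths, the squared difference of the paired counts divided by their sum averaged 1.07. Independent counts give 1 and double counting gives 0. Shares by transcript therefore describe how footprints were assigned, and are not isoform use. Pls3 and Chodl had all their footprints on protein coding transcripts. Ncald had 91.9% and 90.05% on them in replicates 1 and 2, Zpr1 87.5% and 80.9%, and Agrn 72.7% and 73.8%. Tmem41b had 55.4% and 51.9%, Uchl1 48.1% and 46.1% and Coro1c 35.8% and 34.6%.

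Transcript models with a retained intron took all the other Uchl1 footprints, at 51.9% in replicate 1 and 53.9% in replicate 2. Per kilobase of transcript, the 3 models of this class held 710 and 1250 footprints (Uchl1-002), 680 and 1342 (Uchl1-004) and 151 and 269 (Uchl1-003), and the coding Uchl1-001 held 729 and 1210. The 5 retained-intron models of Coro1c ran from 4.29 to 54.7 per kilobase in replicate 1 and from 6.43 to 170 in replicate 2, around the 31.2 and 93.1 of the coding Coro1c-001. The lowest in both libraries was the longest, Coro1c-003 with 5130 nucleotides, and Coro1c-008 and Coro1c-009 were above Coro1c-001 in both. In Agrn the 8612-nucleotide retained-intron model Agrn-008 held 20.3 and 57.2 per kilobase, within the range of the 4 coding transcripts, which was 15.1 to 25.0 in replicate 1 and 54.03 to 68.9 in replicate 2. The other Agrn model of this class, Agrn-002, held 7.24 and 22.2, below that range in both libraries. Whether these footprints lay in introns cannot be read from counts per transcript. In Tmem41b, 3 transcripts annotated as targets of nonsense-mediated decay took 30.8% and 33.2%, and in Coro1c 1 such transcript took 22.8% and 22.1%.

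Transcripts with the same coding length can be set side by side. Ncald has 5 transcripts with the same 582-nucleotide coding length and different untranslated lengths, and their counts ran from 44 to 73 in replicate 1 and from 154 to 208 in replicate 2. Pls3 has 5 coding transcripts, 3 of them with a coding length of 1893 nucleotides, and the 5 drew 27 to 38 footprints in replicate 1 and 118 to 140 in replicate 2. The noncoding Pls3-006 had no footprint in either library, where 3 counts as the floor allow up to 1.61 CPM and 0.570 CPM. Among Chodl transcripts, Chodl-001 drew 13 and 49, Chodl-003 9 and 36, and Chodl-002, with the longest coding sequence at 879 nucleotides, 5 and 30.

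The share of the most abundant transcript was compared between the libraries for the 10162 tested genes with 2 or more transcripts. None of the 8 genes was called by Fisher's exact test after Benjamini-Hochberg adjustment, while 0.187% of all tested genes were. None of the 8 had an unadjusted p under 0.05 in that test, while 569 of the 10162 genes did. Because shares reflect how shared fragments were assigned, a lack of calls does not show that isoform use was the same. For Uchl1-001 the share was 48.1% (Clopper-Pearson 95% interval 45.8 to 50.5) in replicate 1 and 46.1% (44.4 to 47.9) in replicate 2. For Coro1c-001 it was 27.3% in both, and for Agrn-008 23.1% and 22.5%. For Chodl-001, with few footprints, it was 48.1% (28.7 to 68.05) and 42.6% (33.4 to 52.2), an interval too wide to show a moderate change.

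**Figure D3:**
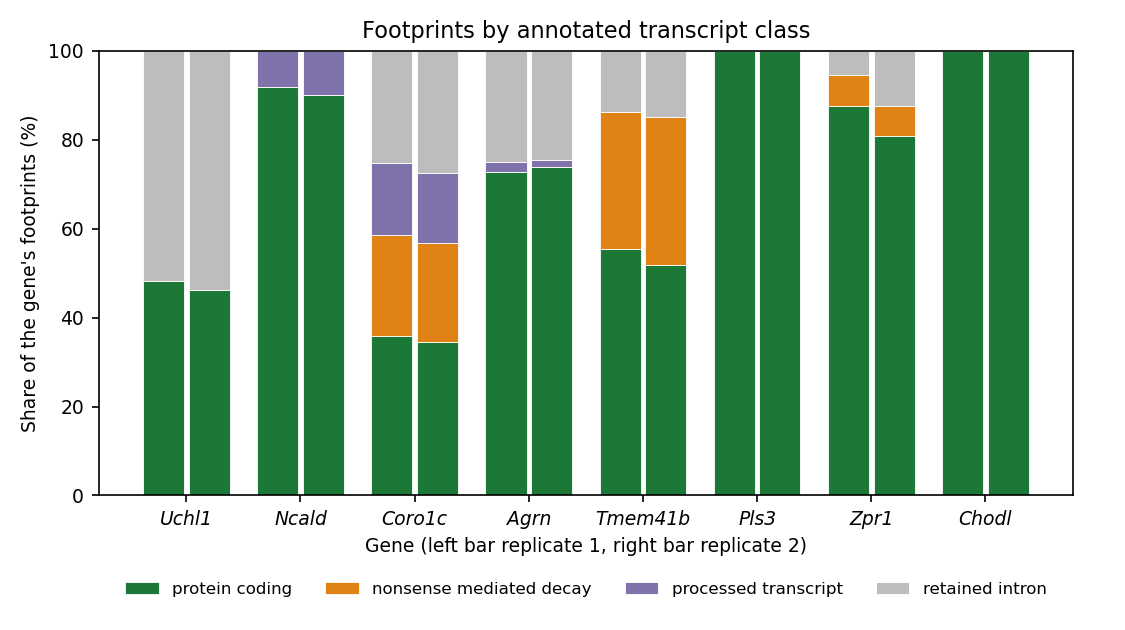
Share of each gene's footprints (%) by annotated transcript class, with replicate 1 as the left and replicate 2 as the right bar. Pls3 and Chodl are wholly on protein coding transcripts, while Uchl1 and Coro1c have less than 50% there in both libraries.

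Genes that overlap the 8 on the genome had few footprints of their own. In RefSeq, 4 of the 8 genes overlap another gene, 11 such genes in all, of which 6 were in the table. Uchl1os, the antisense RNA of Uchl1, had 0 and 1 footprints, set against 1783 and 3087 on Uchl1. The pseudogene Gm8668, inside Ncald, had 1 and 0, and the other 4 had none. Whether the counting used strand is not given in the sources used here, so footprints of Uchl1 and Uchl1os cannot be told apart where the genes overlap.

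Relatives and pathway partners, from lists chosen by function with earlier results of these data known, place each gene in its family. Beside the calls on each list, 11.5% of all tested genes were called lower in replicate 2 and 5.95% higher. The trend with level was not removed from the list ratios. Among the 3 plastins, Pls3 took 73.0% and 79.7% of the summed level per coding length in replicates 1 and 2. Lcp1, the plastin of blood cells, was at 15.6 ± 0.333 and Pls1 at 4.31 ± 0.119 (SD, n = 2), so neither overlapped Pls3. Among the 3 type I coronins, Coro1c took 41.6% and 40.8%. Coro1a, best known from immune cells, was at 180 ± 16.2 (SD, n = 2), so its range overlapped that of Coro1c, while Coro1b was at 80.5 ± 10.9. Of the 10 plastins and coronins, all tested, Pls3 was called higher in replicate 2 and no other was called, and the median log2 ratio was 0.05. The lowest of the list was Coro6, at 2.26 ± 0.733.

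Ncald was the second of 7 calcium sensor genes by mean level, and took 21.1% and 26.9% of the summed level of 6 of them, with the calcineurin-like Chp1 left out. Hpca, encoding hippocalcin, was the highest at 653 ± 7.39 (SD, n = 2), above both Ncald values. Vsnl1 was at 483 ± 130, a range that covers the lower Ncald value, and Hpcal1 was the lowest at 102 ± 5.14. Of the 7, Hpca, Ncs1 and Vsnl1 were called lower in replicate 2, at log2 ratios of -0.18, -0.55 and -0.76. None was called higher, and the median over the list was -0.18. Over all tested genes, 11.5% were called lower. Chp1, itself reported as a modifier of the disease, was at 119 ± 33.0 and was not called.

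Ncald acts on endocytosis, as do Pls3 and Coro1c through actin. All 12 endocytosis genes on the list were tested. Ap2b1 and Synj1 were called higher in replicate 2, at 0.19 and 0.23, and Clta, Cltb and Ap2m1 lower, at -0.29, -0.35 and -0.17, with a median of 0.00 over the list. Levels per coding length ran from 46.6 ± 6.45 for Itsn1 to 660 ± 26.8 for Clta (SD, n = 2), a range that holds the values of Ncald, Coro1c and Pls3 in both libraries. Of 8 genes listed as partners in actin dynamics, Stmn1, Cfl1, Pfn1 and Pfn2 were called lower in replicate 2, at -0.78, -0.94, -0.59 and -0.48. None of the 8 was called higher, and the median over the list was -0.33. Stmn1, which encodes a microtubule-destabilising protein, was the highest at 2576 ± 718, and Rock1 the lowest at 5.19 ± 0.0587.

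Uchl1 took 88.6% and 81.6% of the summed level of the 4 hydrolases of its family. Uchl3 was at 104 ± 10.98, Uchl5 at 73.8 ± 26.1 and Bap1 at 46.9 ± 6.12 (SD, n = 2). Uba1, the main ubiquitin-activating enzyme and a protein reported to be lowered in the disease, was at 309 ± 5.03 and Uba6 was the lowest of the list at 15.6 ± 5.73. Besides Uchl1, Uchl3 and Uba1 were called lower in replicate 2, at -0.42 and -0.24, and Uchl5 and Uba6 were called higher, at 0.52 and 0.56, with a median of -0.09 over the 6 genes. With library totals, Uchl1 was still lower, at -0.70.

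Tmem41b took 53.6% and 75.9% of the level it shares with its paralog Tmem41a. The paralogs moved in opposite directions between the libraries: Tmem41a was called lower in replicate 2, at -0.68, and Tmem41b higher. Vmp1, a related autophagy protein, was the highest of this list at 113 ± 34.9 (SD, n = 2) and was called higher, at 0.43, and Tmem64 was the lowest at 18.6 ± 2.60. The median log2 ratio of these 4 genes was -0.02. Chodl was at 18.9 and 30.3, and Layn, its closest relative on the lists, at 10.7 and 11.3, so both Chodl values were the higher.

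Partners of Agrn were read at unequal levels per coding length. Dag1, encoding the matrix receptor dystroglycan, was the highest of the list at 125 ± 12.1 (SD, n = 2), above Agrn. Prss12, a protease that cleaves agrin, was at 13.3 ± 0.630, Dok7, the adaptor of the MuSK kinase, at 10.3 ± 0.117 and the agrin receptor gene Lrp4 at 6.61 ± 1.12. Musk, encoding the kinase that agrin activates, had 8 and 25 footprints, or 2.00 ± 0.225 per coding length. Rapsn had 2 and 6 footprints, and Chrna1, a subunit of the muscle acetylcholine receptor and the lowest of the list, 1 and 3. Of the 8 genes on this list 6 were tested, and none was called in either direction by the exact binomial test, with a median log2 ratio of -0.05.

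Zpr1 was measured beside genes linked to it. Eef1a1, encoding the elongation factor that ZPR1 binds, was the highest of the list at 1493 ± 123 (SD, n = 2), and has many near-identical copies, so its count is uncertain. Mapk10, encoding the neuronal JNK3 kinase, was called higher in replicate 2 at 0.36, and Eef1a1 and Eef1a2 were called lower, at -0.38 and -0.73, with a median of 0.20 over the 5 genes reported. Zpr1 lay below the other 4 in both libraries.

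**Figure D4:**
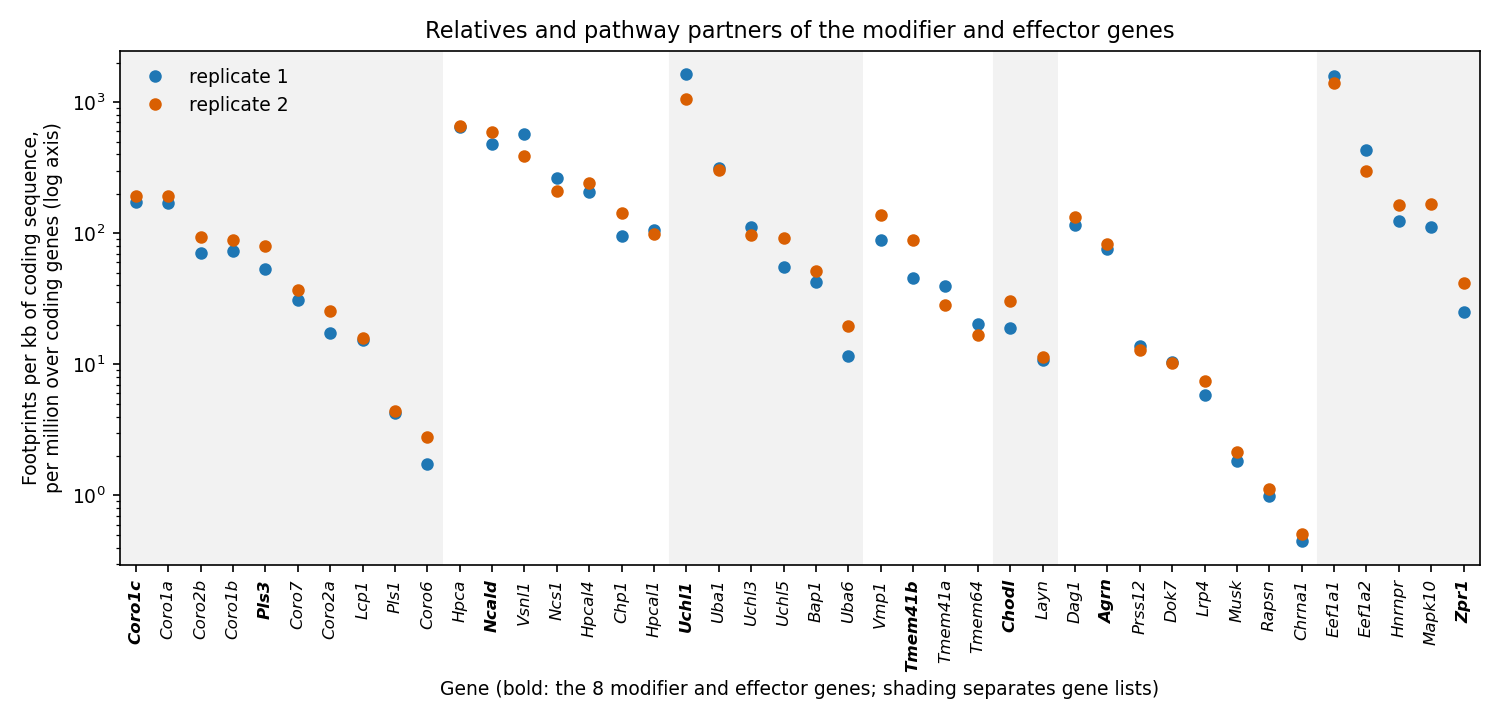
Level per coding length (log axis) of the 8 genes, in bold, and of their relatives and partners in replicate 1 (blue) and replicate 2 (orange), grouped by list and ordered by mean. Pls3 stands above the plastins Lcp1 and Pls1, and Uchl1 and Chodl above the rest of their lists, in both libraries, Coro1c overlaps Coro1a, and Musk, Rapsn and Chrna1 are the lowest of the agrin list.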

How the data were processed

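Footprint counts per transcript were deposited by the authors as raw whole numbers, 1 column per replicate. The submitters' processing notes name Trimmomatic 0.36, Bowtie2 2.2.6, SAMtools and build GRCm38.p4; the counter, strand, duplicates and the handling of fragments that match several places are not given in the sources used here.

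Counts were summed per Ensembl gene. TMM factors (edgeR 4.0.16, genes averaging 10 or more counts) were 0.957 and 1.045. Exact binomial and Fisher tests (SciPy 1.17.1) were adjusted by Benjamini-Hochberg over all tested genes and called under 0.05; log2 ratios carry a prior of 0.5 CPM. A quasi-likelihood fit of 1 library against the other leaves no residual freedom and was not used. Both tests were checked on simulated counts drawn with counting error only, so the check does not cover other differences between libraries. Reads copied by PCR are not independent, so intervals and floors cover counting error only. DESeq2 1.42.0 size factors, library totals, other filters, other transcript choices and a lowess trend (statsmodels 0.14.6) were alternatives. The genes and lists were chosen with earlier results of these data known. Other genes are named if highest, lowest or called on their list, and some relatives and agrin partners were named after their values were seen; with 2 libraries no gene is named for likeness of pattern. RefSeq (GRCm38.p6) gave names and neighbours of all 8 genes, and no coordinates, its patch release being another one. Protein sequences were not used here. 1 gene of the ZPR1 partner list is not reported here.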

Additional observations from a re-analysis of the deposited data

How the results depend on the processing

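The number of the 8 genes called between the libraries was 3, beside 2861 of all 16427 tested genes. It was also 3 with DESeq2 size factors (2860 of 16427 genes called), with no filter beyond a count above 0 (2556 of 25743) and with protein coding transcripts alone (2368 of 13028). It was 4 with the trend removed (2549 of 13349) and with an average of 50 counts or more (2959 of 11057). With library totals it was 5 (3123 of 16427), and with the highest transcript per gene 1 (1295 of 15332). With edgeR's exact test with a common dispersion it was 0 (11 of 16427). In that test, whose dispersion comes from the same difference, 1 of the 8 and 719 of the 16427 had an unadjusted p under 0.05. With library totals, 1896 of 3123 called genes were higher in replicate 2, in place of 978 of 2861. Genes called for the share of the top transcript, 19, became 5 with protein coding transcripts alone. Uchl1 was lower in replicate 2 in all settings tried, from -0.86 to -0.31, and lost its call in edgeR's exact test alone. Zpr1 and Ncald became called in 2 settings each. Leaving out a replicate leaves no comparison between libraries, and the level per coding length is then that of the other library, such as 1062 to 1634 for Uchl1 and 45.7 to 89.0 for Tmem41b. No paired analysis was possible because there is 1 group. Depth limits Chodl and Zpr1 most, with 27 and 56 footprints in replicate 1.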
